A study of Mus musculus with 78 samples.

Results

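Yipf4, Ttc27 and Slc30a6 are 3 genes that lie close together on mouse chromosome 17 and whose array signals differed between mouse lines bred for high or low anxiety. They were taken as every probe annotated to one of these genes, which gave 3 of 19406 named genes and 5 of the 46643 probes on the array: 2 for Yipf4, 1 for Ttc27 and 2 for Slc30a6. The genes were picked because their signals differed between the lines, so all values of the lines against each other are given for these genes as a description, without a test. Signals come from MouseWG-6 v1.1 BeadChips of Illumina, hybridised with RNA of high (HAB), normal (NAB) and low (LAB) anxiety-related behavior mice of breeding generation 25, all male and 10 weeks old, after the behavioral tests used to select them. The RNA was taken from 5 brain regions cut out by laser microdissection, namely the cingulate cortex (Cg), the central amygdala (CeA), the hypothalamic paraventricular nucleus (PVN), the basolateral amygdala (BLA) and the dentate gyrus (DG). There were 75 arrays with values, 25 of HAB, 26 of NAB and 24 of LAB mice, with 5, 6, 6, 5 and 3 HAB arrays, 6, 6, 5, 6 and 3 NAB arrays and 6, 5, 5, 5 and 3 LAB arrays in the Cg, CeA, PVN, BLA and DG. Each line is a single breeding line, so what sets a line apart, behavior included, cannot be told apart from the rest of its descent.

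YIPF4 is a membrane protein of the Golgi apparatus and belongs to the YIP1 family, and in human cells it forms a complex with YIPF3. SLC30A6, also called ZnT6, is a zinc transporter of the early secretory pathway that pairs with SLC30A5 (ZnT5), and together they carry zinc from the cytosol into that pathway. TTC27 is a protein with tetratricopeptide repeats, a fold that holds other proteins, and is less well described. In the order of RefSeq genes along the chromosome, Slc30a6 comes first, followed by Nlrc4, Yipf4, Birc6 and Ttc27.

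The 3 genes read in the same direction, and the 250 bases before each transcription start are shown because the signals of these neighbours differed between the lines in opposite directions. The bases are those of RefSeq on build GRCm38.p6, not of the lines studied, and run 5′ to 3′ on the plus strand at chr17:74395358-74395607 (Slc30a6), chr17:74489243-74489492 (Yipf4) and chr17:74717500-74717749 (Ttc27). Capitals mark, on either strand, the letters of promoter motifs that are spelled out after the sequences.
Slc30a6: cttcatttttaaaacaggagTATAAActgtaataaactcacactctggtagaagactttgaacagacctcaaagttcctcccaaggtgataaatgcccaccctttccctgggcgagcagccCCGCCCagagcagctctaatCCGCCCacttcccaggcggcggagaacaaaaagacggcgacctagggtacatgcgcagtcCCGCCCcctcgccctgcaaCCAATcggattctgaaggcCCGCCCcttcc
Yipf4: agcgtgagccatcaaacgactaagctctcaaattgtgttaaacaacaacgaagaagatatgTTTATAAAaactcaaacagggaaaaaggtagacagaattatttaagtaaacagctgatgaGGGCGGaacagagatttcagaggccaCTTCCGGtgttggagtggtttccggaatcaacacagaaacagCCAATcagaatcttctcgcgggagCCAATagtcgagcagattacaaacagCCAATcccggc
Ttc27: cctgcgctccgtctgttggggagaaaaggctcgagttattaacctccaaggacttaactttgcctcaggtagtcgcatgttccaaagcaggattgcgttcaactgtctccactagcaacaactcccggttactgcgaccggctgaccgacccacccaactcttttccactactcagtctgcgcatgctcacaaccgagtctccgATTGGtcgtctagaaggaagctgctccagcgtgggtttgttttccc
The CCAAT box or its complement was found 3 times before Yipf4 and once each before Slc30a6 and Ttc27, and 33.8% of the 32851 mouse promoters of this length held it. The GC box, GGGCGG, was found 4 times before Slc30a6, 1 time before Yipf4 and not before Ttc27 (32.7% of promoters). A motif bound by ETS factors, CCGGAAG, stood 1 time before Yipf4 alone (6.91% of promoters). The TATA motif, TATAAA, stood before Slc30a6 and on both strands, overlapping, before Yipf4 (12.4%). The bases were G or C in 54.8% before Slc30a6, 43.6% before Yipf4 and 53.6% before Ttc27, against a median of 52.4% over all promoters. These matches are letters in a window, and no binding was measured.

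Before the lines are set side by side, some facts on all arrays are needed. Values are the deposited normalised probe intensities on a linear scale, and a level is called above background when it passed the 95th percentile of the odorant and pheromone receptor probes of the same array, which lay between 6.99 and 10.6. Arrays of the same line and region correlated at 0.945 to 0.981 over all probes (log2 values). The dissections carried their own marker transcripts: Oxt averaged 1592 in the PVN and at most 7.31 elsewhere, Prox1 averaged 151 in the DG and at most 24.2 elsewhere, and Prkcd averaged 100.3 in the CeA and at most 27.3 elsewhere. Slc17a7, a marker of glutamatergic neurons, averaged 265 in the Cg and 481 in the BLA, and no marker looked at set the Cg apart. The blood genes Hbb-bs and Hba-a1 were both higher in HAB than in LAB mice (2 of 2 called, median log2 difference +0.49) and than in NAB mice (2 of 2 called, +0.37), with a summed intensity of 497 to 1762 in HAB, 449 to 1377 in NAB and 372 to 1306 in LAB arrays. Between NAB and LAB mice none of the 2 was called by limma. Of all tested probes 7.17% were called in HAB against LAB mice (2.67% higher and 4.5% lower). The shares were 6.25% in HAB against NAB mice (3.28% higher) and 11.9% in NAB against LAB mice (9.01% lower). Among the other cell type markers, Mbp (1 of 3 oligodendrocyte genes) was higher and Flt1 (1 of 2 endothelial genes) lower in HAB than in LAB mice, and Aldh1l1 (1 of 3 astrocyte genes) and C1qa (1 of 2 microglial genes) were lower in NAB than in LAB mice. The summed signals of these lists overlapped between the lines, at 357 to 1367, 351 to 826 and 313 to 914 for oligodendrocytes, 138 to 400, 123 to 365 and 140 to 406 for astrocytes, 42.5 to 96.8, 43.2 to 108 and 52.7 to 107 for microglia and 94.0 to 224, 92.9 to 228 and 106 to 240 for endothelium, in HAB, NAB and LAB arrays. The part of these markers in the results below was not tested. By the study's methods, samples of one region shared a hybridisation batch, so region and batch cannot be told apart, while the lines were compared inside each batch. The labels do not name the batch or slide of an array.

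Yipf4 gave a signal above background in HAB and NAB mice and lay at background in LAB mice, in every region. Its probe 1770017 lay above background in 25 of 25 HAB arrays, 26 of 26 NAB arrays and 0 of 24 LAB arrays. In the Cg the HAB arrays read 14.9, 15.4, 15.6, 15.7 and 20.4, the NAB arrays 13.2 to 29.6 (median 20.6) and the LAB arrays 2.23 to 3.74 (median 2.97). In the CeA the HAB arrays read 15.2 to 21.4 (median 18.2), the NAB arrays 12.7 to 21.5 (median 18.1) and the LAB arrays 3.17, 3.36, 3.60, 4.47 and 4.85. Even the dimmest HAB or NAB array was thus brighter than the brightest LAB array in both of these regions. In the PVN the HAB arrays read 14.6 to 24.5 (median 20.7), the NAB arrays 20.5, 23.2, 23.6, 24.1 and 25.7, and the LAB arrays 3.44, 3.61, 3.76, 4.52 and 4.78. In the BLA the HAB arrays read 13.8, 14.5, 15.2, 16.0 and 18.1, the NAB arrays 15.7 to 23.5 (median 20.9) and the LAB arrays 3.18, 4.02, 4.17, 4.92 and 5.29. In the DG the HAB arrays read 18.6, 23.2 and 27.1, the NAB arrays 24.7, 27.6 and 38.5, and the LAB arrays 3.88, 3.97 and 4.88. HAB and LAB mice did not overlap in any region, nor did NAB and LAB mice, whereas HAB and NAB mice overlapped in all 5.

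Because LAB arrays carried no measurable Yipf4 level, the size of the difference is a lower limit. The sequences of the array's probes were not used here, so whether the lines differ in sequence under a probe, which can change its signal, was not tested for any of the 3 genes, and a low signal is that of the probe. With the background level of each array in place of its LAB value, Yipf4 was at least 2.19-fold higher in HAB than in LAB mice and at least 2.59-fold higher in NAB than in LAB mice, averaged over regions. By region the limits for HAB against LAB mice were at least 1.90-fold in the Cg, 2.08-fold in the CeA, 2.50-fold in the PVN, 1.73-fold in the BLA and 2.94-fold in the DG. As measured, the log2 difference was +2.27 ± 0.07 (SE) for HAB minus LAB and +2.52 ± 0.07 for NAB minus LAB. HAB minus NAB was -0.24 ± 0.07, with HAB mice lower in 4 regions and higher in the CeA. The second Yipf4 probe, 104570520, was above background in 0 of 75 arrays, read 2.27 to 7.09, and so carried no level for any line. Of the 5 probes it was the only one to fail the filter on dim probes, and the other Yipf4 probe passed that filter through HAB and NAB arrays alone.

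Ttc27 had the opposite pattern, with a clear signal in LAB mice and a signal near background in HAB and NAB mice. Its only probe, 1090280, lay above background in 2 of 25 HAB arrays, 5 of 26 NAB arrays and 24 of 24 LAB arrays. In the Cg the HAB arrays read 4.31, 5.92, 6.18, 6.34 and 7.34, the NAB arrays 3.66 to 7.00 (median 4.42) and the LAB arrays 35.5 to 52.2 (median 43.0). In the CeA the HAB arrays read 4.04 to 7.68 (median 6.28), the NAB arrays 3.95 to 5.69 (median 4.95) and the LAB arrays 30.0, 34.8, 40.5, 49.3 and 54.2. In neither region did a HAB or NAB array come near the dimmest LAB array. In the PVN the HAB arrays read 4.50 to 6.96 (median 5.91), the NAB arrays 4.74, 5.86, 5.89, 6.56 and 6.75, and the LAB arrays 44.1, 45.9, 46.3, 48.7 and 49.3. In the BLA the HAB arrays read 6.73, 7.65, 8.12, 8.32 and 9.30, the NAB arrays 4.64 to 9.37 (median 7.39) and the LAB arrays 42.1, 49.0, 49.0, 49.5 and 56.2. In the DG the HAB arrays read 7.18, 9.12 and 12.8, the NAB arrays 10.0, 11.7 and 12.1, and the LAB arrays 58.9, 61.4 and 62.9. Over all regions the brightest HAB array (12.8) and the brightest NAB array (12.1) lay below the dimmest LAB array (30.0), and HAB and NAB mice overlapped in every region.

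In the Cg, CeA and PVN no HAB or NAB array was above background for Ttc27, and the LAB signal was at least 4.98-fold, 4.59-fold and 5.48-fold the HAB signal. Against NAB mice the limits were at least 4.98-fold, 4.55-fold and 5.28-fold. In the BLA 1 of 5 HAB and 2 of 6 NAB arrays, and in the DG 1 of 3 HAB and 3 of 3 NAB arrays, were above background, so that a measured fold exists for the DG of NAB mice alone, where the LAB signal was 5.43-fold the NAB signal. Averaged over regions the log2 difference was -2.79 ± 0.08 for HAB minus LAB, -2.91 ± 0.08 for NAB minus LAB and +0.12 ± 0.08 for HAB minus NAB, lines that both lay near background. With background in place of values below it, the averaged signal was at least 5.27-fold lower in HAB than in LAB mice and at least 5.22-fold lower in NAB than in LAB mice.

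**Figure D1:**
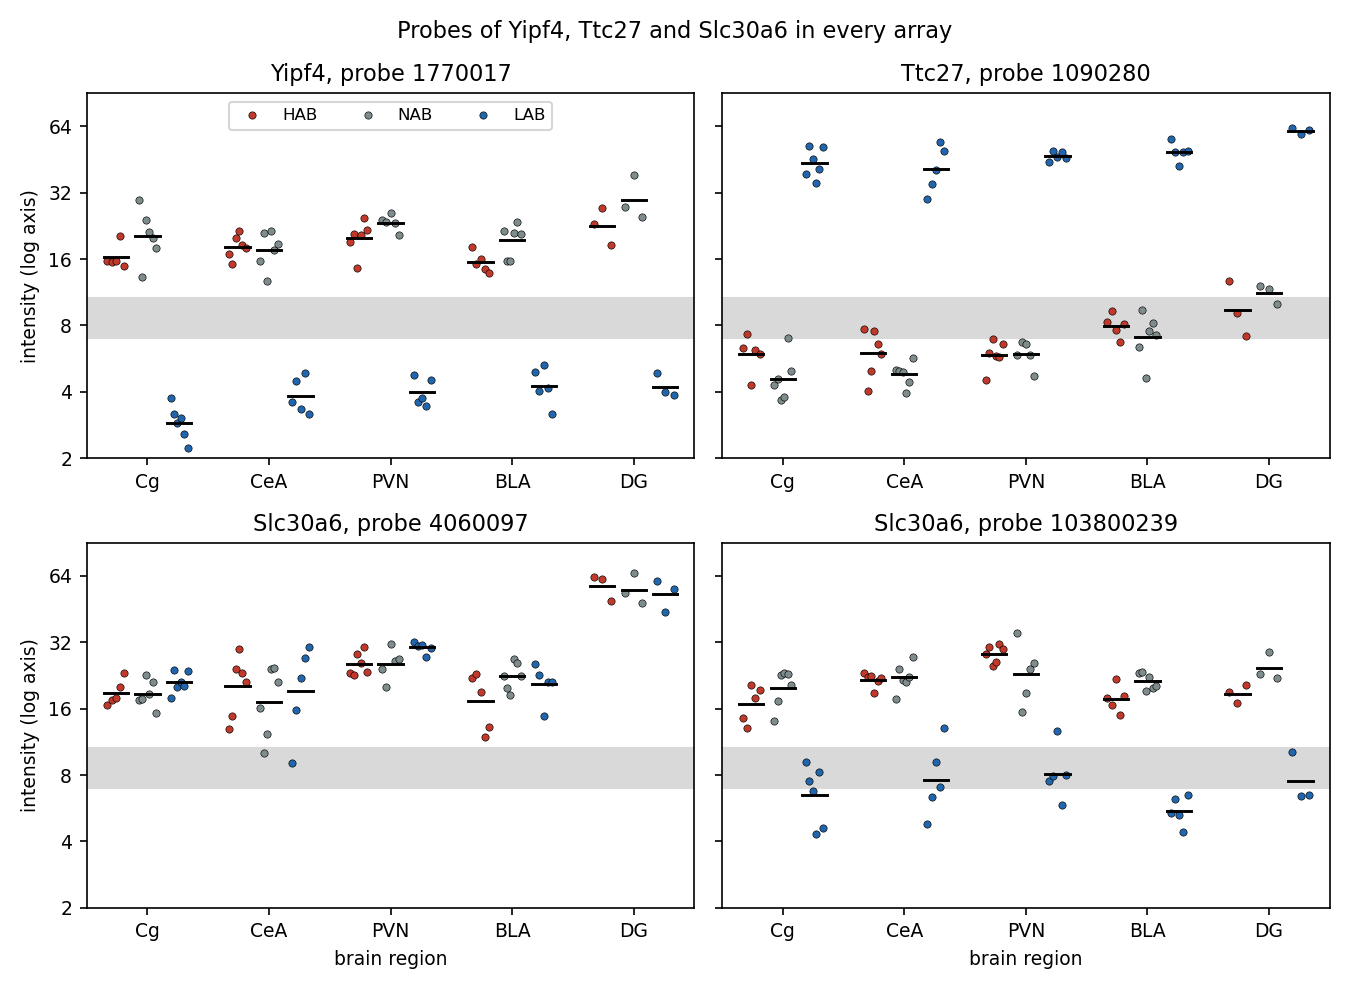
Linear probe intensity on a log axis in every array, by brain region and line (points, 3 to 6 arrays a group; black bars are geometric means; the grey band spans the background levels of the arrays, 6.99 to 10.6). Yipf4 lay above the band in all HAB and NAB arrays and below it in all LAB arrays, Ttc27 lay far above it in LAB arrays alone, and of the Slc30a6 probes 103800239 separated LAB from the other lines while 4060097 did not.

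Slc30a6 gave a different answer at each of its probes. The annotation pairs probe 4060097 with 1 RefSeq transcript of the gene and probe 103800239 with 3. Probe 4060097 was above background in all 75 arrays and showed no separation of the lines in any region. In the PVN it read 22.7 to 30.5 in HAB arrays (median 24.5), 20.1, 24.1, 26.2, 26.7 and 31.4 in NAB arrays and 27.4, 30.2, 30.8, 31.2 and 32.1 in LAB arrays. In the BLA it read 11.9, 13.3, 19.0, 21.9 and 23.0 in HAB arrays, 18.4 to 26.7 in NAB arrays (median 22.4) and 14.9, 21.1, 21.1, 22.7 and 25.6 in LAB arrays. Group means in the Cg and CeA lay between 18.0 and 21.2. In the CeA the probe spread widely, at 13.0 to 29.9 in HAB, 10.0 to 24.4 in NAB and 9.04 to 30.3 in LAB arrays. There HAB mice 1 and 5, NAB mice 2, 4 and 18 and LAB mice 3 and 6 read 9.04 to 16.1. All other CeA arrays read 21.1 to 30.3. The dim arrays were the first CeA samples in the order of the labels, and the cause of this split was not tested. Averaged over regions the log2 difference was -0.09 ± 0.10 for HAB minus LAB, -0.08 ± 0.10 for NAB minus LAB and -0.01 ± 0.10 for HAB minus NAB, none larger than its standard error.

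Probe 103800239 of the same gene was above background in 25 of 25 HAB arrays, 26 of 26 NAB arrays and 6 of 24 LAB arrays, so it passed the filter in the manner of Yipf4. In the Cg it read 13.1, 14.5, 17.8, 19.4 and 20.4 in HAB arrays, 14.1 to 23.2 in NAB arrays (median 21.6) and 4.31 to 9.12 in LAB arrays (median 7.14). In the CeA it read 18.8 to 23.1 in HAB arrays (median 22.1), 17.6 to 27.3 in NAB arrays (median 21.9) and 4.78, 6.38, 7.05, 9.13 and 13.1 in LAB arrays. The brightest LAB array of the CeA, at 13.1, was also the brightest LAB array of all regions, and it stayed just below the dimmest HAB array, which also read 13.1 and came from the Cg. In the PVN it read 25.0 to 31.4 in HAB arrays (median 28.9), 15.4, 18.8, 24.2, 25.7 and 35.2 in NAB arrays and 5.83, 7.50, 7.90, 8.02 and 12.6 in LAB arrays. In the BLA it read 15.0, 16.7, 17.8, 18.3 and 21.8 in HAB arrays, 19.1 to 23.4 in NAB arrays (median 21.2) and 4.41, 5.26, 5.41, 6.23 and 6.49 in LAB arrays. In the DG it read 16.9, 18.9 and 20.5 in HAB arrays, 21.9, 23.0 and 28.8 in NAB arrays and 6.44, 6.53 and 10.2 in LAB arrays. HAB and NAB mice did not overlap with LAB mice in any region. They overlapped with each other everywhere but in the DG, where the 3 HAB arrays lay below the 3 NAB arrays. How many of all probes separated HAB from NAB arrays in the DG was not counted, so nothing is read from this.

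Averaged over regions, probe 103800239 was +1.54 ± 0.09 (log2, SE) for HAB minus LAB and +1.66 ± 0.09 for NAB minus LAB as measured. Because 18 of 24 LAB arrays were below background, the averaged signal is given as at least 2.25-fold higher in HAB and at least 2.45-fold higher in NAB than in LAB mice. In the BLA, where 0 of 5 LAB arrays were above background, the signal was at least 1.99-fold higher in HAB and at least 2.38-fold higher in NAB than in LAB mice. HAB minus NAB was -0.12 ± 0.09.

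NAB lay beside HAB at each probe that separated the lines. At Yipf4 probe 1770017, Ttc27 and Slc30a6 probe 103800239 the NAB arrays did not overlap with the LAB arrays in any region. The NAB arrays overlapped with the HAB arrays in every region except the DG at the Slc30a6 probe, with 3 arrays of each line. How far NAB stood from HAB on a scale set by LAB was not measured, since Yipf4 was at background in LAB arrays and Ttc27 near it in HAB and NAB arrays. The HAB against LAB and NAB against LAB values share the LAB arrays.

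How often such a separation occurs over the whole array is the background for these counts. Of the 22087 probes tested, 93 (0.421%) had every HAB array above every LAB array in each of the 5 regions, as Yipf4 probe 1770017 and Slc30a6 probe 103800239 did, and 96 (0.435%) had every HAB array below every LAB array, as Ttc27 did. For NAB against LAB mice these were 57 probes (0.258%) with NAB above and 56 (0.254%) with NAB below. The genes were chosen on these values, so nothing is read from the counts. Across the 75 arrays, with the mean of each region removed, Yipf4 probe 1770017 and Ttc27 correlated at r = -0.96, Yipf4 and Slc30a6 probe 103800239 at 0.91 and Ttc27 and that Slc30a6 probe at -0.91. With the mean of each line in each region removed as well, these became 0.02, 0.04 and 0.05, so inside a line and region the signals of these probes had almost no correlation from mouse to mouse. Each of these 3 signals lay at or near background in at least one line.

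**Figure D2:**
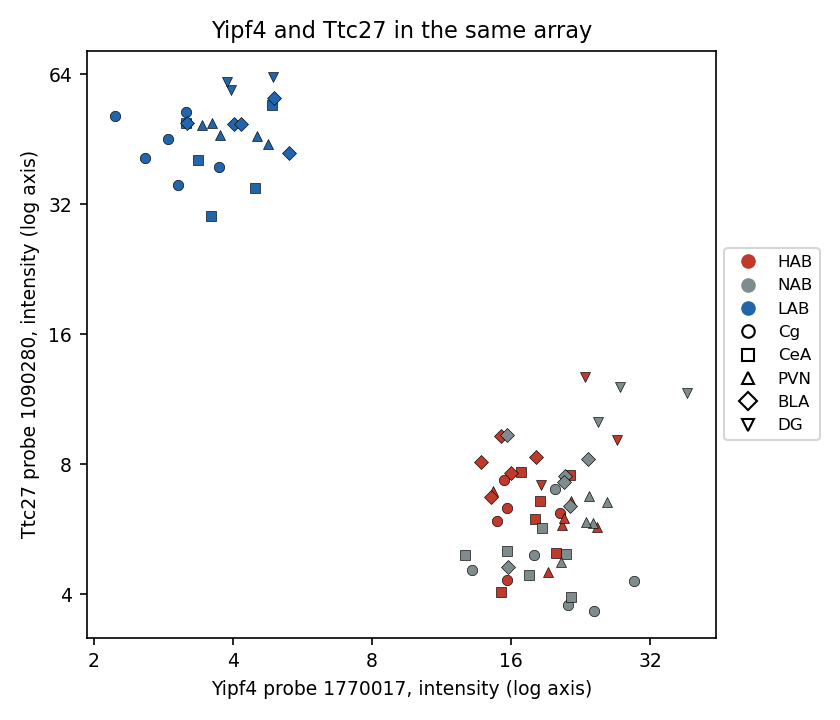
Intensity of Ttc27 probe 1090280 against Yipf4 probe 1770017 in the 75 arrays, both on log axes, with colour for the line and shape for the region. The 24 LAB arrays formed a cloud at a Yipf4 of 2.23 to 5.29 and a Ttc27 of 30.0 to 62.9, and the HAB and NAB arrays shared another at a Yipf4 of 12.7 to 38.5 and a Ttc27 of 3.66 to 12.8.

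The regions offer a comparison that the choice of the genes did not use. Slc30a6 probe 4060097 was brightest in the DG in all lines: 49.3, 61.6 and 63.4 in HAB, 48.1, 53.3 and 65.6 in NAB and 43.7, 55.6 and 60.3 in LAB arrays. The dimmest of these 9 arrays was brighter than any of the 66 arrays of the other regions, which reached 32.1. How many of all tested probes separated the DG in this way was not counted, so nothing is read from this separation. Against the mean of the other 4 regions the DG was 2.62-fold higher (log2 +1.39 ± 0.12, limma adjusted p 1.74e-16), with +1.51 in HAB, +1.42 in NAB and +1.23 in LAB mice. A share of 70.8% of all tested probes was called in the DG against the other regions, so being called there is common on this array. Each remaining region was likewise set against the mean of its other 4 regions in this probe. The Cg (-0.49 ± 0.09, adjusted p 6.65e-06) and the CeA (-0.56 ± 0.09, adjusted p 5.19e-07) were called lower. So was the BLA (-0.44 ± 0.09, adjusted p 6.19e-05), while the PVN was not called (+0.10 ± 0.09, adjusted p 0.368). These means include the bright DG, so the values partly restate the DG result. Over all lines the PVN had a geometric mean of 27.0, below that of the DG (55.2). It lay above the BLA (20.0), Cg (19.5) and CeA (18.8). Differences among the regions without the DG were not tested. In bulk tissue, fewer cells of a kind and less RNA per cell cannot be told apart.

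The other probes were at or near background in some lines, so each region was also compared inside the lines in which every array of the probe lay above background: HAB and NAB mice for Yipf4 probe 1770017 and Slc30a6 probe 103800239, and LAB mice for Ttc27. This comparison was added after the values were seen, and its p-values are adjusted over all tested probes. For HAB and NAB mice the shares of all tested probes called were 56% (Cg), 54% (CeA), 54.5% (PVN), 48.1% (BLA) and 63.8% (DG). For LAB mice alone the shares were 44.5% (Cg), 26.5% (CeA), 42.6% (PVN), 33.8% (BLA) and 50.6% (DG).

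Yipf4 probe 1770017 was higher in the DG than elsewhere in HAB and NAB mice (+0.47 ± 0.11, limma adjusted p 1.20e-04), by +0.38 in HAB and +0.56 in NAB mice. It was lower in the BLA (-0.26 ± 0.09, adjusted p 0.0104) and the CeA (-0.20 ± 0.08, adjusted p 0.0377), and the Cg was not called (-0.16 ± 0.09, adjusted p 0.0944). With LAB mice averaged in, the Cg was called lower (-0.27 ± 0.07, adjusted p 5.08e-04), with -0.21 in HAB, -0.12 in NAB and -0.49 in LAB mice, in which the probe was at background. Ttc27 was higher in the DG of LAB mice (+0.44 ± 0.16, adjusted p 0.0173) and was called in no other region of that line (Cg -0.17 ± 0.12, adjusted p 0.271, and CeA -0.29 ± 0.13, adjusted p 0.0963). The fit over all lines called Ttc27 lower in the Cg (-0.34 ± 0.07, adjusted p 3.42e-05) and the CeA (-0.35 ± 0.07, adjusted p 3.00e-05), where no HAB or NAB array was above background. It also called Ttc27 higher in the BLA (+0.17 ± 0.07, adjusted p 0.047), a call lost in 16 of 28 alternative settings and in LAB mice alone (+0.05 ± 0.13, adjusted p 0.819).

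Slc30a6 probe 103800239 was not called in the DG (+0.02 ± 0.13 in HAB and NAB mice, adjusted p 0.894), where the other probe of the gene was brightest. Its PVN signal was higher in HAB and NAB mice (+0.34 ± 0.10, adjusted p 4.23e-03), with +0.60 in HAB and +0.07 in NAB mice, a difference between lines that was not tested. The Cg was lower (-0.27 ± 0.10, adjusted p 0.0237), a call that in the fit over all lines (-0.22 ± 0.08, adjusted p 0.0175) was lost in 3 of 28 alternative settings. The BLA was called lower only with LAB mice averaged in (-0.25 ± 0.09, adjusted p 0.0117, against -0.15 ± 0.10, adjusted p 0.223, in HAB and NAB mice). Inside the lines named, 6 of 15 tests of a region were called over these 3 probes. In the fit over all lines 13 of 20 were called over the 4 tested probes, where between 56.3% (BLA) and 70.8% (DG) of all probes were, the Cg standing at 65.8%, the CeA at 58.9% and the PVN at 61.7%.

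Cell type markers were compared between the regions as well. Of all tested probes 65.8% (Cg), 58.9% (CeA), 61.7% (PVN), 56.3% (BLA) and 70.8% (DG) were called, so a called marker is common on this array. In the DG all 3 oligodendrocyte, both microglial and both blood genes and 1 of 2 endothelial genes were lower than in the other regions, and of 3 astrocyte genes 2 were higher and 1 lower. In the DG arrays and those of the other regions the summed signals were 325 to 482 and 313 to 1367 for oligodendrocytes, 42.5 to 74.8 and 43.2 to 108 for microglia, 372 to 912 and 388 to 1762 for blood, 94.0 to 143 and 92.9 to 240 for endothelium, and 253 to 406 and 123 to 400 for astrocytes. In the PVN both blood genes (summed signal 705 to 1762), both endothelial genes (126 to 240) and 2 of 3 astrocyte genes (190.1 to 400) were higher, 1 of 3 oligodendrocyte genes (313 to 1367) was lower, and of the 2 microglial genes (43.2 to 94.4) 1 was higher and 1 lower. In the CeA all 3 oligodendrocyte genes (501 to 914) and 1 of 2 microglial genes (67.8 to 99.7) were higher, and both blood genes (388 to 1211), both endothelial genes (92.9 to 164) and 2 of 3 astrocyte genes (128 to 243) were lower. In the BLA 2 of 3 oligodendrocyte genes (498 to 826), both microglial genes (68.5 to 108) and 1 of 2 endothelial genes (117 to 163) were higher, 2 of 3 astrocyte genes (123 to 198) were lower and neither blood gene (465 to 1371) was called by limma. In the Cg 1 astrocyte (143 to 270), 1 microglial (77.1 to 107) and 1 blood gene (667 to 1091) were higher, and 1 oligodendrocyte (351 to 525) and 1 endothelial gene (106 to 168) lower. Their part in the levels of the 3 genes was not tested.

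**Figure D3:**
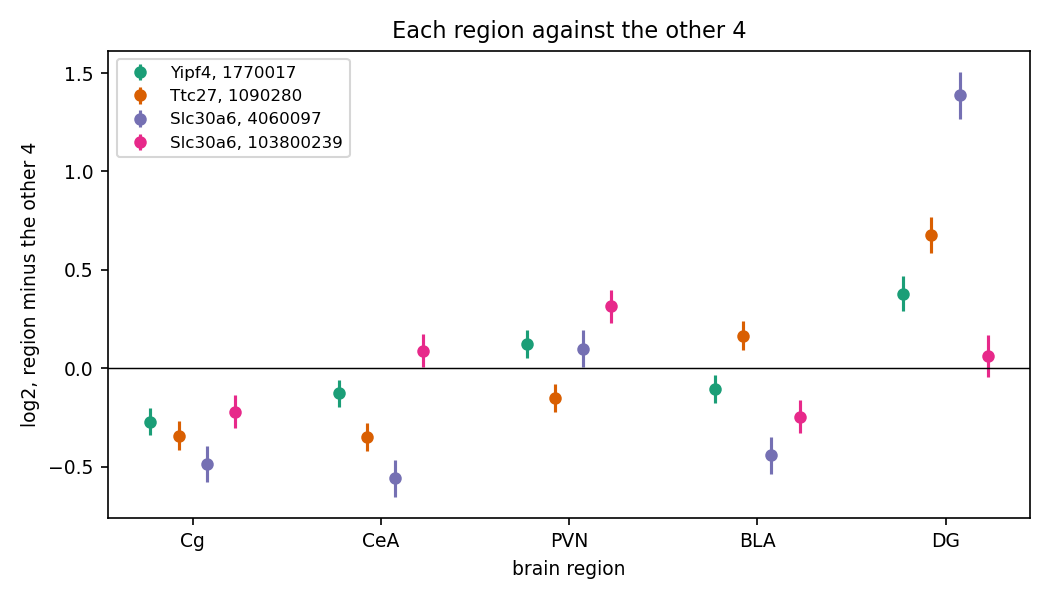
Log2 difference of each region from the mean of the other 4, for the 4 tested probes (points; bars are ± 1 SE from the joint limma fit over 75 arrays of all lines, those at background included). Slc30a6 probe 4060097 stood at +1.39 in the DG, where probe 103800239 of the same gene stood at +0.06, Yipf4 at +0.38 and Ttc27 at +0.67.

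Whether HAB minus LAB changed from region to region was tested with the line by region term of the same fit. At Yipf4 probe 1770017, Ttc27 and Slc30a6 probe 103800239 a line of this difference lay at or near background, so for them the term was not measured and is not given. Slc30a6 probe 4060097, above background in all arrays, was not called by limma (adjusted p 1.00, unadjusted p 0.594), in a test that called 57 of 22087 probes (0.258%). A p above the threshold does not show that the regions were alike.

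The neighbours on chromosome 17 were compared between the lines in the same fit. The window held the 2 genes between Slc30a6 and Ttc27 and the 15 protein-coding genes on each side, 32 in all, of which 29 had a probe and 25 a probe that was tested (43 probes). In HAB against LAB mice 9 of the 43 probes (20.9%) were called, 5 higher and 4 lower, where 7.17% of all tested probes were (2.67% higher and 4.5% lower). In NAB against LAB mice it was 11 of 43 (25.6%), 4 higher and 7 lower, against 11.9% of all tested probes (2.87% higher and 9.01% lower). Between HAB and NAB mice 2 of 43 (4.65%) were called, both higher in HAB, against 6.25% of all tested probes (3.28% higher and 2.97% lower). The median size of the log2 difference of the neighbours was 0.11 in HAB against LAB mice, against 0.07 over all tested probes, so most of the neighbours differed little. None reached the size of the differences of Yipf4, Ttc27 or Slc30a6 probe 103800239.

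On the Slc30a6 side, Ehd3, an ATPase of endocytic recycling, averaged 88.9 in HAB, 71.2 in NAB and 42.6 in LAB mice over the regions. It was higher in HAB than in LAB mice (log2 +1.09 ± 0.09, adjusted p 4.18e-16), without overlap in any of the 5 regions, and higher in NAB than in LAB mice (+0.73 ± 0.09, adjusted p 1.52e-09). In Ehd3 NAB stood between the other lines, with HAB minus NAB at +0.36 ± 0.09 (adjusted p 3.14e-03), a call that was lost without NAB mouse 2 (+0.18, adjusted p 0.0939). Xdh, the xanthine dehydrogenase of purine breakdown, was dim (9.60 in HAB, 7.04 in NAB and 5.65 in LAB mice), with 19 of 25 HAB, 6 of 26 NAB and 1 of 24 LAB arrays above background, so its differences are those of signals partly below it. It was called higher in HAB than in LAB mice (+0.76 ± 0.10, adjusted p 6.19e-09) and than in NAB mice (+0.48 ± 0.10, adjusted p 2.50e-04). Its NAB minus LAB call (+0.29 ± 0.10, adjusted p 0.0432) was lost in 17 of 28 alternative settings. One probe of Clip4, 103990215, a gene of the microtubule-binding CLIP family, averaged 38.5 in HAB, 34.8 in NAB and 20.7 in LAB mice and was higher in HAB (+0.84 ± 0.10, adjusted p 5.43e-10) and NAB (+0.67 ± 0.10, adjusted p 3.63e-07) than in LAB mice. Another Clip4 probe, 5860288, was lower in NAB than in LAB mice (-0.18 ± 0.06, adjusted p 0.0415), a call lost in 12 of 28 alternative settings, and was not called in HAB against LAB mice (-0.16 ± 0.06, adjusted p 0.103).

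Between Yipf4 and Ttc27 lies Birc6, a very large ubiquitin-conjugating enzyme that holds back cell death. Of its 4 tested probes only 103390181 was called, higher in HAB (adjusted p 1.95e-05) and in NAB (adjusted p 4.59e-07) than in LAB mice. This probe was above background in only 5 of 25 HAB, 9 of 26 NAB and 1 of 24 LAB arrays, so the size of its difference was not measured, and it was not tested when the background was set at the 99th percentile. Spast, the microtubule-severing spastin next to Slc30a6, had 4 tested probes, none of which was called in any comparison of lines by limma. Nlrc4, between Slc30a6 and Yipf4, had a single probe that was not tested.

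The remaining calls were small. In HAB against LAB mice Alk probe 730008, of a receptor tyrosine kinase, was lower (-0.35 ± 0.07, adjusted p 9.37e-05), as was Galnt14 probe 106940538, of an enzyme of O-glycosylation (-0.33 ± 0.08, adjusted p 2.81e-03). Ypel5 probe 101500088 (-0.19 ± 0.05, adjusted p 9.34e-03) and Fam98a (-0.17 ± 0.04, adjusted p 2.27e-03) were lower as well, and Memo1 probe 6860372 was higher (+0.25 ± 0.08, adjusted p 0.0304). In NAB against LAB mice Fam98a (-0.18 ± 0.04, adjusted p 4.58e-04), Fez2 (-0.22 ± 0.07, adjusted p 0.0278), Galnt14 probe 3990278 (-0.24 ± 0.08, adjusted p 0.0369) and Ndufaf7 probe 6110114, of an assembly factor of respiratory complex I (-0.40 ± 0.11, adjusted p 0.0125), were lower. So were both called probes of Dpy30, a subunit of histone H3 methyltransferase complexes: 4480270 (-0.19 ± 0.05, adjusted p 9.20e-03) and 6860056 (-0.24 ± 0.06, adjusted p 1.48e-03). Both Galnt14 probes and the Memo1 probe were above background in at most 14 of the arrays of a line (9 of 25 HAB, 12 of 26 NAB and 14 of 24 LAB arrays for Galnt14 probe 106940538, 5, 6 and 8 for 3990278, and 7, 5 and 3 for Memo1), and Memo1 and Galnt14 probe 106940538 were not tested with background at the 99th percentile. Of these calls, Memo1 lost its call in 9, Ypel5 in 1, Fez2 in 7, Galnt14 probe 3990278 in 9, Ndufaf7 in 2 and Dpy30 probe 4480270 in 1 of the alternative settings. The other tested probes of Alk, Ypel5, Memo1, Ndufaf7 and Dpy30 were called by limma in no comparison of lines. For HAB minus LAB, Ypel5 probe 100870292 had the opposite sign (+0.15 ± 0.09, adjusted p 0.382) and Alk probe 105720047 stood at -0.11 ± 0.10 (adjusted p 0.648). For NAB minus LAB, Ndufaf7 probe 360369 stood at -0.04 ± 0.08 (adjusted p 0.793) and Dpy30 probe 2510025 at -0.11 ± 0.07 (adjusted p 0.334).

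**Figure D4:**
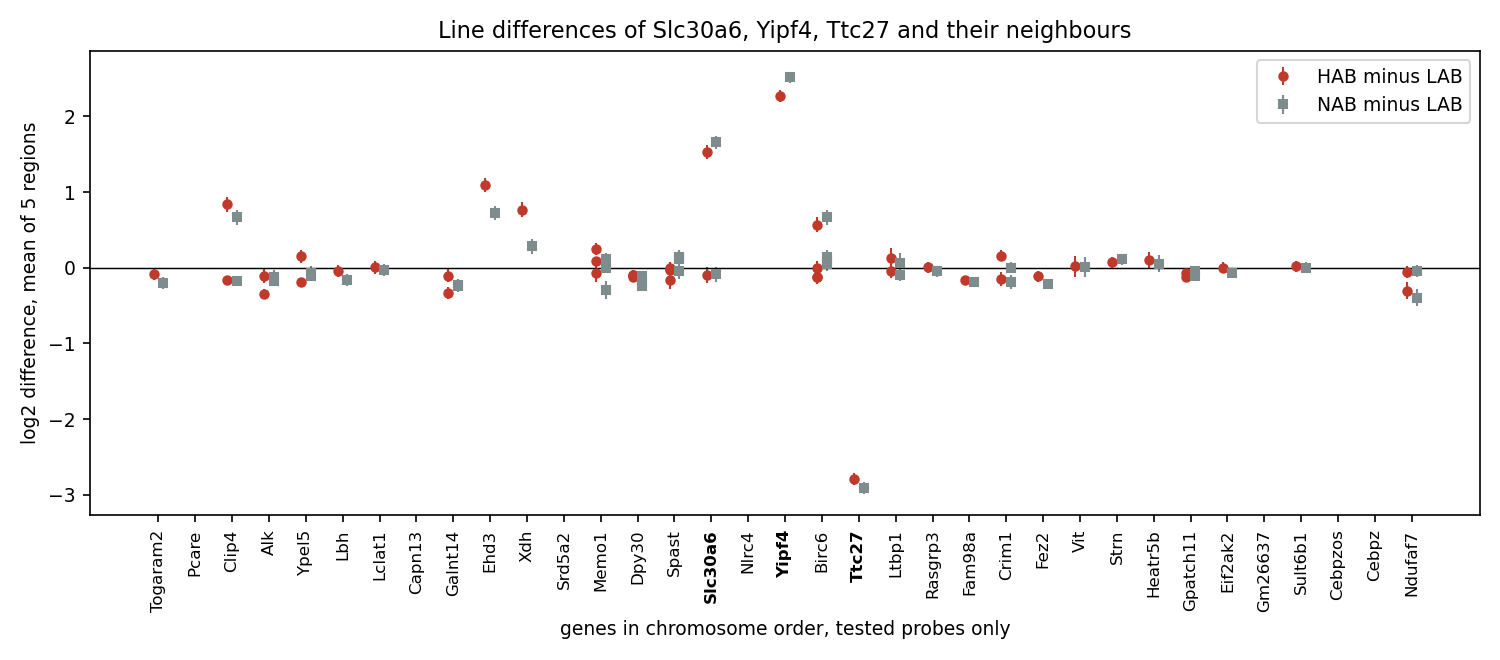
Log2 difference averaged over the 5 regions for every tested probe of the 3 genes and their neighbours in chromosome order (circles HAB minus LAB, squares NAB minus LAB; bars are ± 1 SE; gene names without points had no tested probe). Yipf4 stood at +2.27 and +2.52, Slc30a6 at +1.54 and +1.66 in one probe and near 0 in the other, and Ttc27 at -2.79 and -2.91, while the neighbours lay between -0.40 and +1.09.

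Genes whose products pair with the proteins of the 3 genes, or are of the same family, were compared between the lines in the same fit. Yipf3, whose product pairs with YIPF4 in human cells, was lower in HAB than in LAB mice at probe 5270408 (113.6 to 165, median 128, in HAB and 136 to 192, median 150.3, in LAB arrays; log2 -0.28 ± 0.04, adjusted p 8.98e-08). NAB arrays read 112 to 175 (median 141), also lower than LAB (-0.18 ± 0.04, adjusted p 5.18e-04), so this partner gene had the sign opposite to Yipf4, with ranges that overlapped. The dim Yipf3 probe 6900341, above background in 10 of 25 HAB, 10 of 26 NAB and 16 of 24 LAB arrays, was called lower in NAB than in LAB mice (-0.66 ± 0.16, adjusted p 1.77e-03) and not called in HAB against LAB mice (-0.39 ± 0.16, adjusted p 0.148). Of the other 8 genes of the Yip1 family, 11 probes of 7 genes were tested. In HAB against LAB mice 1 was called (lower) and in NAB against LAB mice 4 were (all lower, in Yipf3, Yif1a and Yif1b), against 7.17% (4.5% lower) and 11.9% (9.01% lower) of all tested probes and with list medians of -0.04 and -0.11 beside -0.04 and -0.03 over all tested probes. In HAB against NAB mice limma called none, and 2 had an unadjusted p under 0.05. How many of all tested probes passed that cut was not counted.

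Slc30a5, the zinc transporter that pairs with SLC30A6, read 33.8 to 80.0 in HAB, 35.9 to 77.5 in NAB and 39.9 to 85.4 in LAB arrays at probe 2630288 and was not called (HAB minus LAB -0.13 ± 0.07, adjusted p 0.297, and NAB minus LAB -0.17 ± 0.06, adjusted p 0.0677). Among the 13 tested probes of 7 other genes of this family of zinc exporters, limma called none in any comparison of lines. An unadjusted p under 0.05 was found for 2 between HAB and LAB, 1 between HAB and NAB and 3 between NAB and LAB mice. The share of all tested probes under that cut was not counted, so nothing is read from these numbers. A list of 12 genes of the U5 snRNP of the spliceosome and of the HSP90 R2TP cochaperones was added because human TTC27 has been linked to them. Of its 16 tested probes 1 was lower in HAB than in LAB mice (Ruvbl2, -0.21 ± 0.06, adjusted p 7.83e-03) and 3 were lower in NAB than in LAB mice (Eftud2, Rpap3 and Ruvbl1), where 4.5% and 9.01% of all tested probes were. In HAB against NAB mice 2 of the 16 probes were called, both higher, against 6.25% of all tested probes (3.28% higher). Rpap3, a scaffold of the R2TP complex, averaged 26.5 in HAB, 16.7 in NAB and 22.6 in LAB mice. It was higher in HAB than in NAB mice (+0.70 ± 0.09, adjusted p 6.63e-09). Ruvbl1, an AAA+ ATPase, had a smaller HAB minus NAB difference (+0.23 ± 0.04, adjusted p 4.39e-05).

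The probes of other genes whose pattern over the arrays was most like that of the 3 genes were sought on log2 intensity with the mean of each region removed, over 75 arrays and among tested probes with 1 gene symbol. For Yipf4 probe 1770017 they were Pdhb (r = 0.96, averaging 18.7 in HAB, 32.3 in NAB and 3.64 in LAB mice), Add3 (0.95) and Ndufa13 (0.94), and the most opposed were Pop4 (-0.91), B3gntl1 (-0.91) and Mtif2 (-0.88). For Ttc27 they were Pop4 (0.94, averaging 44.8 in HAB, 45.9 in NAB and 104 in LAB mice), Slco1c1 (0.94) and Mipep (0.92), and the most opposed were Pdhb (-0.95), Ndufa13 (-0.94) and Add3 (-0.93). For Slc30a6 probe 103800239 they were Ndufa13 (0.93), Usp53 (0.91) and Cars (0.91), with Pop4 (-0.87), B3gntl1 (-0.85) and Slco1c1 (-0.84) at the other end. None of these genes lies on chromosome 17. The points share the 3 lines and are not independent observations of each pair.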

How the data were processed

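The intensity values are those deposited. The authors took bead summaries from BeadStudio and applied the QSpline normalisation of R packages based on beadarray to all samples. Versions and background treatment are not given in the sources used here. Linear intensities were taken as log2 values. Precision is limited by the number of arrays, 3 to 6 a group. Of 78 arrays, 3 of the DG held no values. The deposited non-normalised intensities stayed unused, because the names of their 156 per-sample columns match no label.

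Probes were named through the platform annotation, with symbols updated by Entrez number (46643 probes, 32849 annotated). A probe was tested if above background (the 95th percentile of 1303 receptor probes of an array) in as many arrays of any region as that region's smallest line held, which left 22087. The 15 group means were fitted in limma 3.58.1 (R 4.3.3; lmFit, duplicateCorrelation with the mouse as a random block, eBayes), with Benjamini-Hochberg adjustment over all tested probes and a threshold of 0.05. Standard errors (SE) inside a region come from fits of that region alone. Bounds ("at least") set each dim value below background to the background level. The labels carry 21 mouse numbers (6 HAB, 7 NAB, 8 LAB), which exceeds the animals in the study's methods, so the mouse block relies on the labels. Between regions of one mouse, deviations from the group means had a mean correlation of 0.0462 (70 of 114 pairs positive), and the consensus correlation was 0.0141. Nothing in the labels says more on the independence of the animals of a line.

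Named were every probe of the 3 genes, every neighbour with a called probe, the called members of the lists (at most 4 a list) and the 3 most like and 3 most opposed probes. The genes, lists and tests were chosen with earlier results of these data known. The fit was tested on simulated data. Alternatives were another background level, no filter, 16 added before log2, median centring, quantile normalisation, array weights, no mouse block, each mouse left out (consensus correlation kept) and, added after seeing the data, region contrasts inside the lines in which a probe lay above background.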

Additional observations from a re-analysis of the deposited data

Results flagged for a closer look

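Of 48 groups of 4 to 6 arrays over the 4 tested probes, 1 held an array far from the others, where chance alone gives about 1 in 20 groups. In the Cg of HAB mice, Yipf4 probe 1770017 read 20.4 in mouse 11 and 14.9 to 15.7 in the other 4 mice. All 5 lay above the LAB arrays of that region.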

How the results depend on the processing

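The line differences of the 4 tested probes kept their direction and moved by less than the spread between arrays under all 28 alternatives, except where 16 was added before log2, which shrinks differences of dim probes by construction. Then Yipf4 probe 1770017 was 0.80 for HAB minus LAB and 0.94 for NAB minus LAB, Ttc27 was -1.47 and -1.50, and Slc30a6 probe 103800239 was 0.65 and 0.72. The small HAB minus NAB difference of Slc30a6 probe 4060097 (-0.01) also took a positive value, up to 0.04, when a mouse was left out. Leaving out each of the 21 mice, Yipf4 ran from 2.24 to 2.31 and Ttc27 from -2.86 to -2.76 for HAB minus LAB. Between 11 and 14 of the region tests of these probes were called throughout.

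Neighbour probes called numbered 9 between HAB and LAB, 2 between HAB and NAB and 11 between NAB and LAB mice. With background at the 99th percentile HAB against LAB gave 6, since Birc6 probe 103390181, Memo1 probe 6860372 and Galnt14 probe 106940538 were no longer tested, and with a mouse left out it gave 8 to 10. With a mouse left out, HAB against NAB gave 1 to 4 (1 without NAB mouse 2 and 4 without NAB mouse 4), and NAB against LAB 6 to 14 (6 without LAB mouse 14 and 6 without NAB mouse 15). List probes called numbered 2, 2 and 7 in the same comparisons. HAB against LAB gave 1 to 4 (4 without LAB mouse 6 and 1 without LAB mouse 10) and 5 with array weights, HAB against NAB 2 to 4 and NAB against LAB 5 to 12, both highest without NAB mouse 2. The cause was not tested.

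Without the mouse as a block, the averaged differences were 2.27 for Yipf4 and -2.79 for Ttc27 (HAB minus LAB). The higher BLA level of Ttc27 lost its call in this fit (adjusted p 0.05 when rounded), in 12 of 21 fits without a mouse and in 3 other settings. Inside the lines in which a probe lay above background, a comparison added after seeing the data, 5 region calls ended (Yipf4 in the Cg at -0.16, Slc30a6 probe 103800239 in the BLA at -0.15, and Ttc27 in the Cg at -0.17, the CeA at -0.29 and the BLA at 0.05) and Yipf4 gained calls in the CeA (-0.20) and the BLA (-0.26). The fit with array weights stopped before its estimates had settled. Signals near background limit the LAB level of Yipf4 and the HAB and NAB levels of Ttc27 to upper bounds.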
